A study of Mus musculus with 8 samples.

Results

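KLF13 peaks 1 to 3 kb from a transcription start site (TSS) made up 400 of the 9506 peaks in the deposited list of KLF13 binding sites in mouse HT22 cells (4.21%, exact 95% binomial interval 3.81 to 4.63). They were chosen by the authors' annotation of each peak, which put 248 peaks in the promoter class 1 to 2 kb out and 152 in the class 2 to 3 kb out. The annotation uses distance alone, so fold and p-value were not used directly in the choice. Distance runs from the nearer edge of the peak to the TSS of the transcript assigned to it. A wider peak therefore counts more easily as near or over a TSS, and width entered the choice in this way. Fold rose with width over the list (Spearman 0.67), so fold is not independent of the choice either. The 400 peaks were assigned to 363 genes, of which 327 had 1 such peak and 36 had 2 or more, and 368 of the peaks lay at protein-coding genes. HT22 is an immortalized neuronal line from mouse hippocampus, used here as the derivative HT22-BirA, which carries the biotin ligase BirA as a stable transgene. All cells were transfected with the plasmid pTO-Klf13Bio, from which a KLF13 carrying a tag that BirA biotinylates is made, and chromatin was taken 24 h later. Streptavidin pulls the tagged protein and its DNA out of crosslinked, sonicated chromatin, a method abbreviated ChSP. The series holds 4 libraries of such precipitates and 4 of input chromatin, and the inputs came from cells with BirA and the plasmid too. Precipitates from cells without tagged KLF13 are not analysed here, and the sources used here do not give the amount of tagged against endogenous KLF13 or whether the BirA line is 1 clone. The labels number the libraries without saying that they came from separate cultures. Each peak has 1 fold of ChSP over input and 1 p-value for all libraries together. No spread between libraries could therefore be given for any value, read depth is unknown, and intervals cover counting error only.

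KLF13 is a zinc-finger protein of the Krüppel-like family, whose members bind GC-rich elements such as the GC box and the CACCC box. Some members, KLF13 among them, can recruit the SIN3 corepressor through their N-terminal part. Many KLF and Sp factors bind close to the start of transcription, within the CpG-rich core of a promoter. The flanks beyond that core can hold further start sites of the same gene, the starts of antisense or neighbouring transcripts, and short-range enhancers.

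Sequence at the start of a gene was available from RefSeq promoter windows (GRCm38.p6). Of the 391 members for which such starts were looked up, 20 covered at least 1. The first start listed for each was of the assigned gene in 8. The peak at Tbx1, not among these 8, covered a Tbx1 start as well as the one listed first. The 5 stretches below are shown because, although the authors' annotation places each of these peaks more than 1 kb from a TSS, the peak lies over a start in RefSeq. Each stretch runs 5′ to 3′ along the strand of the gene, ends at the base before the RefSeq start and lies inside the peak. Capitals mark the GC box (GGGCGG, or CCGCCC where it lies on the other strand) and the CACCC box (CCACCC, or GGGTGG on the other strand), and neighbouring boxes can touch or share letters.
Akap7, chr10:25297080-25297329, minus strand: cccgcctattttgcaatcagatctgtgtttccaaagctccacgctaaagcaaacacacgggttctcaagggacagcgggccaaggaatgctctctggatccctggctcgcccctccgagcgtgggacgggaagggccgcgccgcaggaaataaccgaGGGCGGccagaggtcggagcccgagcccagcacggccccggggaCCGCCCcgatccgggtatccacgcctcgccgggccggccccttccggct
Cep135, chr5:76588501-76588698, plus strand: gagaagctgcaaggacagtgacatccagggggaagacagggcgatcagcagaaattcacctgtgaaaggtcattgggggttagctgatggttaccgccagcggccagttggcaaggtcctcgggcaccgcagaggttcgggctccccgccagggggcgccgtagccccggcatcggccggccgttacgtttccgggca
Kif7, chr7:79715708-79715957, minus strand: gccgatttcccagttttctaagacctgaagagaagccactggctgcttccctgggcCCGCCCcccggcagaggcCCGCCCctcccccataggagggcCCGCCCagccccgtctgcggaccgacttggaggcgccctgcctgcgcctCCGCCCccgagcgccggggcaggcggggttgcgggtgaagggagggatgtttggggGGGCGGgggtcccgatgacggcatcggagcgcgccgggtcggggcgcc
Egr2, chr10:67535249-67535498, plus strand: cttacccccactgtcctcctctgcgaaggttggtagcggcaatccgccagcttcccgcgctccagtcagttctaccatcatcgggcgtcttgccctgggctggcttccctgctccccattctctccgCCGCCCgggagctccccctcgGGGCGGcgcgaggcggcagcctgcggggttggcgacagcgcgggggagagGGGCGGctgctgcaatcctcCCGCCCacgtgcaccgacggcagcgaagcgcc
Gm32817, chr16:13447702-13447951, plus strand: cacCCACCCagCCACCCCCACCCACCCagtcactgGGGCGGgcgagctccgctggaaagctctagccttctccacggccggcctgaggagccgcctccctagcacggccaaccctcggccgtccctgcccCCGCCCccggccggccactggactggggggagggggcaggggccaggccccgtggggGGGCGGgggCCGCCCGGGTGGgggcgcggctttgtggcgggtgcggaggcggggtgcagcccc
The stretch at Akap7, an A-kinase anchoring protein gene, holds 2 GC boxes, and that at Kif7, a kinesin-family gene of Hedgehog signalling in cilia, holds 5. The stretch at Egr2, an immediate early zinc-finger factor, holds 4 GC boxes and no CACCC box. That at Cep135, a gene of the centriole, holds neither motif. The last one, at the non-coding gene Gm32817, lies in the peak that the authors' annotation assigned to Mir193b, and holds 4 GC boxes and 5 CACCC boxes. Kif7 was picked for its number of boxes after the sequences were seen. The folds of these 5 peaks were 37.9 at Akap7, 29.9 at Cep135, 26.5 at Kif7, 18.4 at Egr2 and 28.2 at Mir193b.

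Members at microRNA genes numbered 13, at 12 genes, and for the 2 with the highest folds a mature sequence from RefSeq is shown, with the seed (bases 2 to 8) in capitals. The seed is the stretch that pairs with target messages.
mmu-miR-17-5p: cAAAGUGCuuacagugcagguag
mmu-miR-193b-3p: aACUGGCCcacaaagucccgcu
The peak assigned to Mir17 was the widest of the 400, at 2100 bp (chr14:115040401-115042500), with a fold of 44.3 and a deposited p of 1.12e-14. It ended 1170 bp before the Mir17 hairpin, the leading member of a cluster of 6 hairpins on the plus strand (Mir17, Mir18, Mir19a, Mir20a, Mir19b-1 and Mir92-1). The 6 hairpins began between 1170 and 1926 bp past the peak's edge. The nearest RefSeq start was that of the host gene Mir17hg, 1890 bp from the peak. This was the only peak of the list assigned to Mir17. The peak assigned to Mir193b had a fold of 28.2, ended 1222 bp before the hairpin and covered the RefSeq start shown above. Next by fold came Mir6769b, with peaks of 24.5 and 12.3 on either side of it, and Mir3083 at 19.7. Folds at the 13 peaks ran from 5.52 to 44.3 with a median of 13.9, and 9 of the 13 lay upstream, beside 31.5% of all members. Of all 1228 microRNA genes in the RefSeq gene table, 12 had a member (0.977%). By the list's name pattern the same 12 were counted among 1037 genes (1.16%, 0.599 to 2.01).

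Members were weaker and narrower than the bulk of the list, and close to peaks at other distances that did not cover a TSS. The median fold of the 400 members was 17.1 (interval of the median 16.3 to 17.9, quartiles 12.8 and 21.1, range 2.22 to 86.0), beside 21.1 over all 9506 peaks and 24.1 over the 5984 peaks that covered a TSS. The inner class, 1 to 2 kb, had a median of 17.1 and the outer class one of 16.9, with overlapping intervals (16.4 to 18.1 and 15.3 to 18.7). Peaks 1 to 500 bp from a TSS, which did not cover it, had a median fold of 16.9, those 500 to 1000 bp away 17.7, those 3 to 5 kb away 16.3, those 5 to 10 kb away 17.6 and those beyond 10 kb 17.2. The step in fold therefore lay between peaks that covered a TSS and all others, with no further fall across the 1 to 3 kb zone. Because distance is taken from the peak's edge, a wide peak covers a TSS more easily, and fold rose with width. How much of the step in fold and width follows from this was not tested. A fold over 30 was reached by 19 members (4.75%), beside 22.0% of the list. Median width was 500 bp for members (quartiles 400 and 700) beside 600 bp for the list and 700 bp for peaks over a TSS. The median deposited p was 3.81e-09 for members and 5.30e-12 for the list. Fold and width rose together among the members (Spearman 0.61 over 400 peaks, which share all 8 libraries), as they did in the whole list (0.67).

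**Figure D1:**
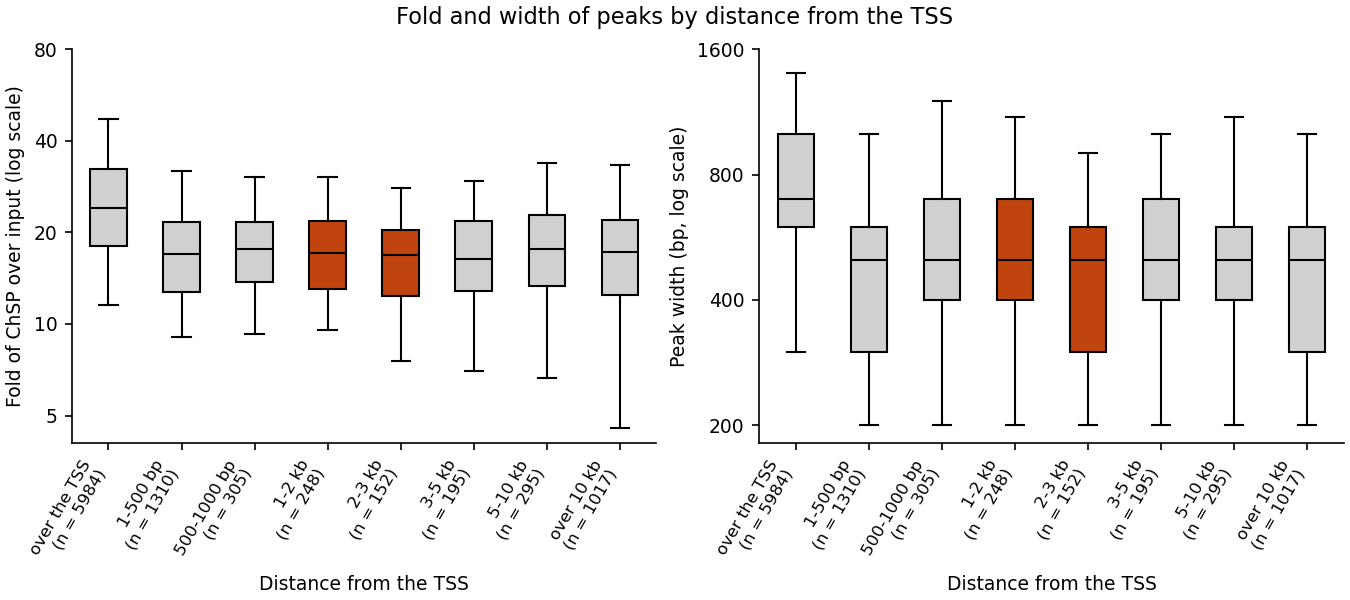
Fold of ChSP over input (left, log scale) and peak width in bp (right, log scale) by distance from the TSS, with peaks 1 to 3 kb out in colour; boxes are quartiles with the median as a line, and whiskers reach the 5th and 95th percentiles. The median fold is 24.1 over the TSS and between 16.3 and 17.7 in every other band.

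Members lay more often downstream than upstream of the TSS. Of the 400, 274 were downstream (68.5%, 63.7 to 73.0) and 126 upstream. The share downstream was 71.0% at 1 to 2 kb (64.9 to 76.5) and 64.5% at 2 to 3 kb (56.3 to 72.1). It was 77.9% for peaks 1 to 500 bp away, 68.9% at 500 to 1000 bp, 67.2% at 3 to 5 kb, 58.0% at 5 to 10 kb and 54.1% beyond 10 kb. Counts fell with distance downstream, where the 4 successive bins of 0.5 kb from 1 to 3 kb held 104, 72, 50 and 48 members. Upstream the 4 bins from 1 to 3 kb held 46, 26, 31 and 23, a fall from first to last that was not steady. Just past 3 kb the bin held 43 peaks downstream and 19 upstream. Of the 274 downstream members, 254 lay wholly inside the assigned transcript and 11 lay past its end. The assigned transcripts were short, with a median span of 7.07 kb for members, beside 25.4 kb for the list, 6.69 kb for peaks 3 to 5 kb out and 43.8 kb for intron peaks. The median fold was 17.2 upstream and 17.0 downstream.

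**Figure D2:**
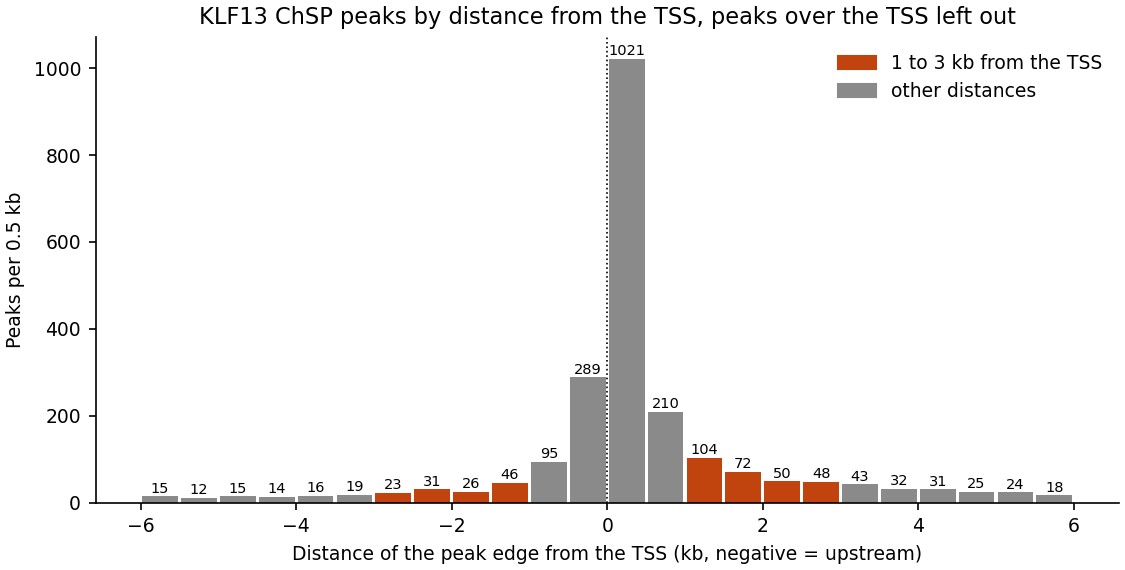
Peaks per 0.5 kb (vertical axis) by the signed distance of the peak's edge from the TSS in kb (horizontal axis, negative upstream), with peaks 1 to 3 kb out in colour and the 5984 peaks over a TSS left out. The count falls from 104 to 48 between 1 and 3 kb downstream and from 46 to 23 between 1 and 3 kb upstream.

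The members nearest to the 1 kb limit were Sall4 at 1001 bp (fold 17.0) and Gp1bb at 1003 bp (18.9), and the peaks nearest to it on the TSS side, which are not members, were Mark4 at 1000 bp (15.9) and Slc6a5 at 999 bp (13.1). At the 3 kb limit the nearest members were Tmem121 at 2998 bp (13.2) and Gimap5 at 2997 bp (11.8). Just beyond it, and not members, were 9530059O14Rik at 3001 bp (24.4) and Smarcd3 at 3002 bp (38.5). Smarcd3, a subunit of SWI/SNF chromatin remodelling complexes, also had a member 2599 bp upstream with a fold of 34.3 and a peak over its TSS of 29.8.

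The highest fold among the members was at Nfil3, which encodes a bZIP repressor that binds D-box elements of the circadian clock. Its peak at chr13:52978201-52978900 lay 2139 bp downstream of the TSS, with a fold of 86.0 and a deposited p of 1.12e-16, and ranked 2 in fold in the whole list. The peak over the Nfil3 TSS had a fold of 41.9, so the member was the higher of the pair. Dbp, which encodes an activator of the same D-box elements, had a member with a fold of 39.3 (chr7:45706601-45707300, 1354 bp downstream) and no other peak. Bhlhe41, a repressor within the clock, had a member of 17.2 located 1720 bp downstream, below its TSS peak of 35.6. All 3 lay downstream of the TSS, as did 68.5% of all members. These 3 were the only members among 26 clock genes (11.5%, 2.45 to 30.2), beside 1.52% of all 21900 protein-coding genes. A peak within 1 kb of a TSS was present at 19 of the 26, beside 30.9% of protein-coding genes.

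Other members of high fold fell into those with and without a peak near the TSS of the same gene. Marcks, an actin-binding substrate of protein kinase C, had a fold of 47.6 over 1600 bp (chr10:37135901-37137500, 1426 bp downstream) and no other peak. Gpsm3, a modulator of G protein signalling, had 45.1 at 1806 bp upstream, and Akap7 had 37.9 at 1763 bp downstream, again with no other peak for either gene. Efna5, an ephrin ligand of axon guidance, had 43.1 at 1284 bp upstream beside 28.9 over its TSS. Foxp1, a forkhead factor of neurons and lymphocytes, had 39.1 at 1408 bp upstream of a TSS whose own peak was 23.0, while another Foxp1 TSS held a peak of 29.8. The adhesion gene Pcdh1 had 48.8 at 1739 bp upstream beside a highest fold of 8.13 within 1 kb of its TSS. Crocc, which encodes the ciliary rootlet protein rootletin, had 45.1 at 2557 bp upstream of 1 transcript, and its other peak, of 15.2, lay 34800 bp away at another TSS. By deposited p the leading members were Cep135 (8.18e-24, fold 29.9), the forkhead gene Foxo3 (8.20e-24, fold 29.0), Gpsm3 (1.71e-22), Mllt6 (2.14e-22, fold 25.4) and Akap7 (9.27e-22). At Foxo3 and Mllt6 the highest peak within 1 kb of a TSS was close to the member in fold, at 33.1 and 27.6.

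A peak within 1 kb of a TSS of the same gene accompanied 221 of the 400 members (55.25%, 50.2 to 60.2), at 197 genes. Among the 1507 peaks beyond 3 kb the share was 49.8%. In these 221 pairs the member was the higher in 74 (33.5%, 27.3 to 40.1), when set against the highest peak of the gene within 1 kb. Taking the highest of several peaks favours the peak near the TSS. The medians were 17.1 for the member and 21.8 for the peak near the TSS, and the median ratio was 0.776. The member was more than 2 times higher in 8 pairs, and the peak near the TSS was more than 2 times higher in 47. The rank correlation between the folds of the 2 peaks of a pair was near 0 (Spearman 0.0016 over 221 pairs, which share libraries and, for some, the gene). The gap between the 2 peaks had a median of 1300 bp, and 15 pairs were over 10 kb apart, at different starts of 1 gene. Within 10 kb the member was the higher in 68 of 206 pairs (33.0%). By ratio, the largest differences in favour of the member were at Pcdh1, Crocc, Tfap2a (32.3 against 12.8) and Fgf9 (33.2 against 14.1). In the other direction stood Eif4enif1, with 2.22 and 2.75 against 32.6, and Fzd5, a Wnt receptor, with members of 10.5 and 9.76 against 49.3 at its TSS.

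**Figure D3:**
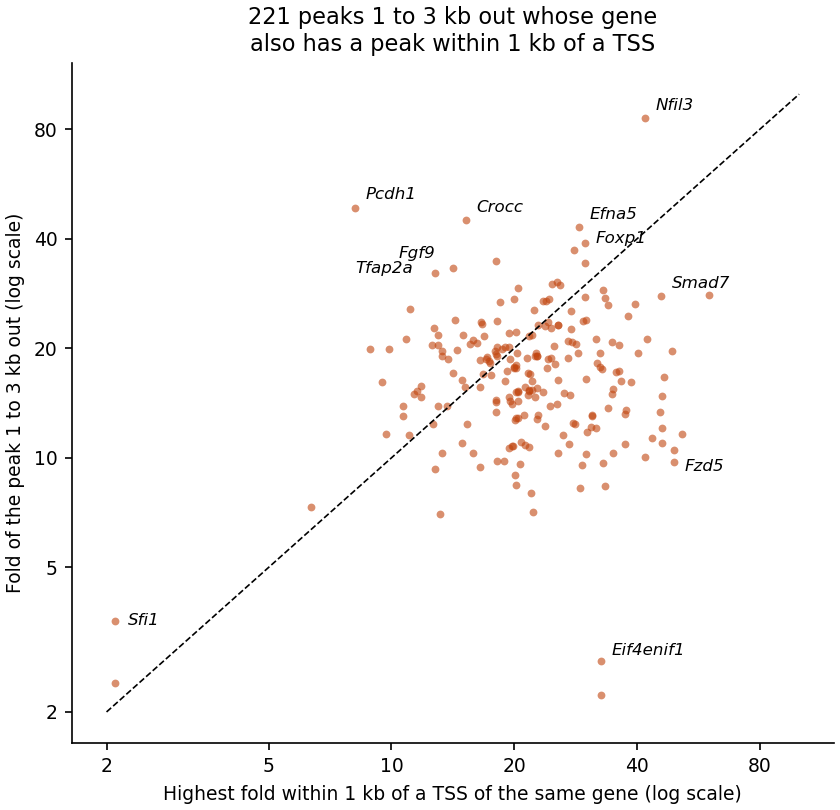
Fold of each of the 221 members with a peak within 1 kb of a TSS of the same gene (vertical axis, log scale) against the highest fold within 1 kb (horizontal axis, log scale); the dashed line marks equal folds. Of the 221 points 74 lie above the line, with Nfil3, Pcdh1 and Crocc the farthest up and Eif4enif1 and Sfi1 at the bottom.

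The other 179 members, at 166 genes, had no such peak, and 130 of them were the only peak of their gene in the list. Over the whole list 9506 peaks were assigned to 7800 genes, so most genes in it had a single peak. The share of all peaks that were the only one of their gene is not given. The median fold of the 179 was 17.1, the same as that of the members with a peak near the TSS. For 156 of the 391 members looked up (39.9%) there was neither a peak within 1 kb of an annotated TSS of the gene nor a RefSeq start of any gene within 1 kb. A RefSeq start lay within 1 kb of 40 members (10.2%, 7.41 to 13.7). The nearest start, or the first listed of several equally near, was of the assigned gene in 18 and of another gene in 22. A start of the assigned gene can also lie within 1 kb where that of another gene was counted. The share with a start within 1 kb was 65.6% over all peaks. Members were chosen to lie more than 1 kb from an annotated TSS and most of the list lies nearer. The gap follows from that choice. In classes also away from a TSS the share was 6.77% at 3 to 5 kb, 7.60% in introns, 7.23% in exons and 12.6% in distal intergenic peaks. The 40 had a median fold of 18.4 and a median width of 600 bp, beside 16.9 and 500 bp for the other 351. The RefSeq start table is not complete, so these are counts of starts found in it.

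Members lay close to other peaks. Another peak of the list lay within 5 kb of 259 members (64.75%, 59.8 to 69.4), beside 19.6% of all peaks. The share was 58.0% for peaks 500 to 1000 bp from a TSS, 56.9% for those 3 to 5 kb away and 28.1% for those 5 to 10 kb away. A member and a peak within 1 kb of the same TSS lie within 5 kb of each other by definition, so members with such a partner nearly all had a neighbour (94.1%, the others having theirs at another start of the gene). Of the 179 members without a partner 28.5% had a neighbour. The gap was under 1 kb for 135 members and over 100 kb for 33. Its median was 1.9 kb for members, beside 42 kb for all peaks. It was 1.3 kb for peaks 500 to 1000 bp from a TSS and 4 kb for those 3 to 5 kb away. When only the 4753 peaks with the smallest p were kept, 102 members were left and 41.2% of these had a neighbour within 5 kb. Dropping peaks also drops neighbours, and the share over all 4753 peaks is not given.

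At 36 genes there were 2 or more members, counted per gene and not always at the same TSS. Only Adgrb2, an adhesion G protein-coupled receptor gene of the brain, had 3. Members of 21.7 and 15.3 lay 1131 and 2931 bp downstream of 1 Adgrb2 TSS, and another of 15.3 lay 2211 bp upstream of a different one. Pcdh8, an activity-regulated protocadherin gene, had members of 36.1 and 20.3, at 1112 and 2412 bp downstream, and no peak nearer its TSS. Junb, an AP-1 subunit gene, had 15.9 at 2048 bp downstream and 12.3 at 1353 bp upstream, with no peak assigned to the gene between them. Hes7, a Notch target that oscillates during somite formation, showed the same arrangement with 19.7 downstream and 14.8 upstream. At Efna3, an ephrin gene, 4 peaks followed each other downstream from the TSS with folds of 21.8, 23.5, 15.2 and 27.0, the last 2 being members. Bcl11b, a zinc-finger factor of cortical projection neurons and T cells, had members of 14.4 and 18.7 upstream and peaks of 17.4 and 19.5 within 1 kb. The alpha-2 adrenergic receptor genes Adra2a and Adra2c each had 2 members downstream, of 16.4 and 11.0 at Adra2a and of 22.1 and 14.7 at Adra2c. Both also had a peak within 1 kb, of 14.9 and 19.5.

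**Figure D4:**
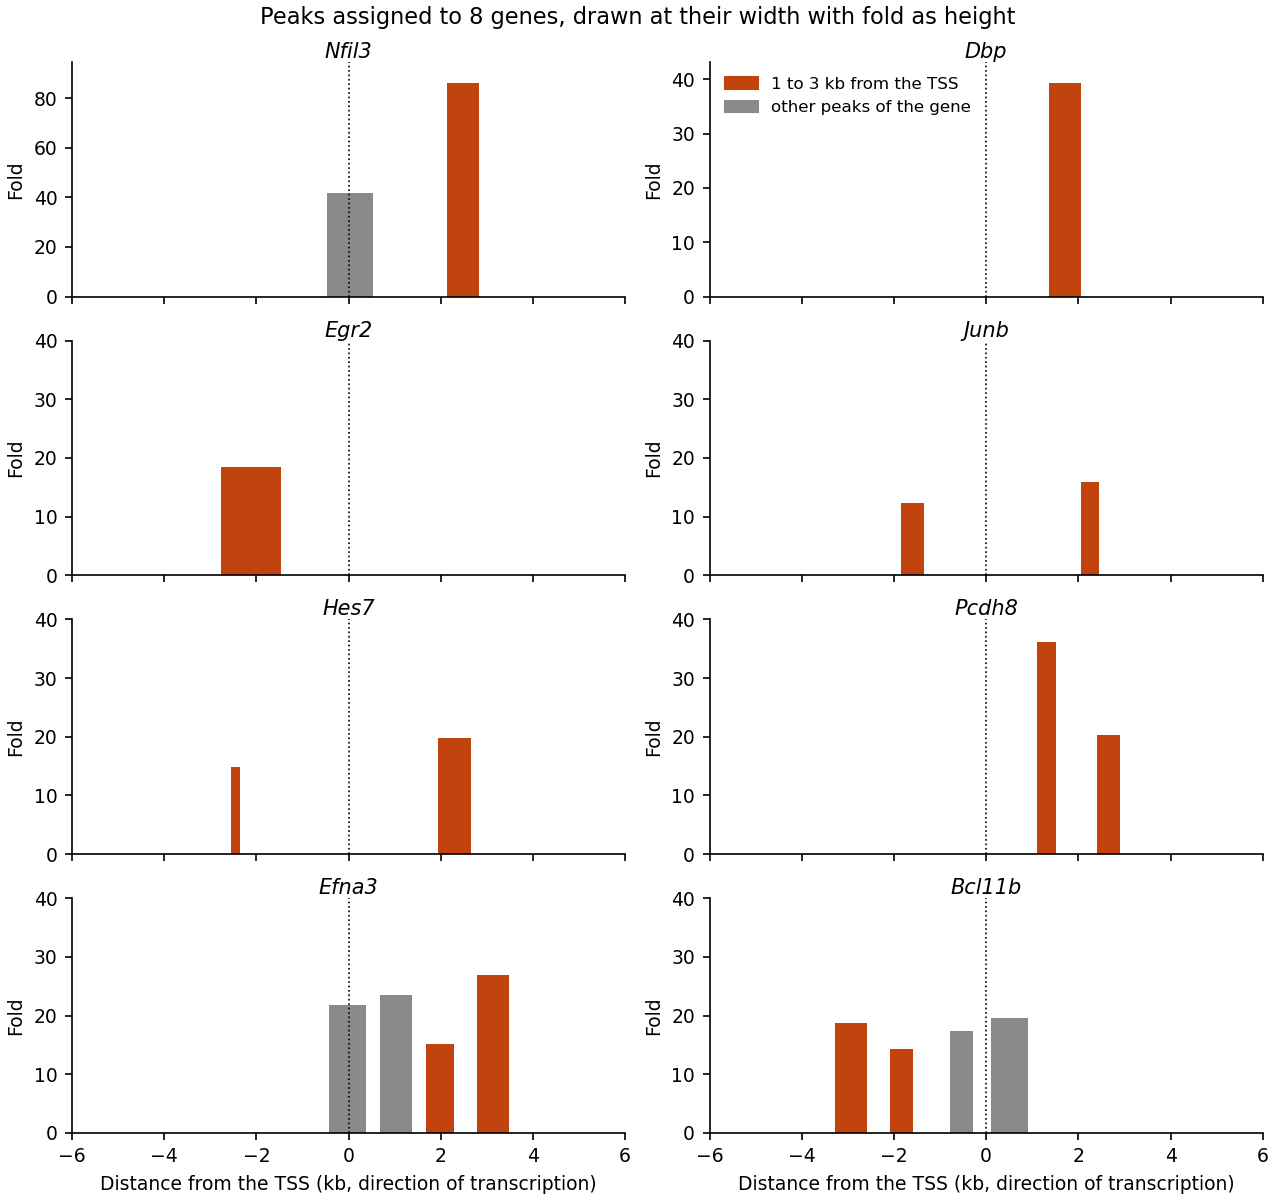
Peaks assigned to 8 genes, drawn at their width along the distance from the TSS in kb (horizontal axis, in the direction of transcription) with the fold as height (vertical axis, scaled separately for Nfil3 and Dbp); coloured peaks are 1 to 3 kb out. Dbp, Egr2, Junb, Hes7 and Pcdh8 have no peak at the TSS of the authors' annotation, while Nfil3 has 41.9 there and 86.0 downstream; the Egr2 peak covers an Egr2 start of RefSeq.

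Shares of genes with a member differed widely among the 23 gene lists, from 0% to 24.1%. The 4 highest were those of immediate early genes, developmental transcription factors, the circadian clock (11.5%, above) and TGF-beta, BMP and Wnt signalling. Of 29 immediate early genes, which respond to stimuli without new protein synthesis, 7 had a member (24.1%, 10.3 to 43.5), beside 1.52% of protein-coding genes. Of their 8 peaks 5 lay upstream, beside 31.5% of all members. The median fold of the 8 was 18.1, beside 17.1 over all members. The values were 20.4 at Nr4a3, an orphan nuclear receptor gene, 20.2 at Egr3, 19.5 at Ier5l, 18.4 at Egr2, 17.7 at Fosl2, 15.9 and 12.3 at Junb and 10.7 at Jun. Egr2, Junb and Jun had no peak within 1 kb of an annotated TSS, though the Egr2 member covers a RefSeq start of the gene. The other 4 genes had 1, with folds of 13.0 at Nr4a3, 19.0 at Egr3, 28.7 at Ier5l and 32.5 at Fosl2. In the whole list of 29 genes 18 had a peak within 1 kb (62.1%), so both shares were above those of protein-coding genes as a whole.

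Developmental transcription factors had members at 32 of 207 genes (15.5%, 10.8 to 21.1), and 127 of the 207 had a peak within 1 kb (61.4%). Their 34 members had a median fold of 17.0 (8.35 to 39.1), and 25 of the 34 lay downstream, beside 68.5% of all members. Of the 32 genes 23 also had a peak within 1 kb of a TSS. After Foxp1 and Foxo3 the highest members were at Id2, an inhibitor of basic helix-loop-helix factors (28.2, 2409 bp upstream, no peak within 1 kb), and at Lhx2, a LIM homeodomain factor of the forebrain (27.4, 2708 bp upstream, with 20.0 near the TSS). Lhx8, a LIM homeodomain factor of cholinergic neurons, had members of 14.8 and 12.7 downstream and none nearer. At Lbx1, a homeodomain gene of spinal cord and muscle, members of 17.6 upstream and 12.8 downstream flanked a highest fold of 20.2 within 1 kb.

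TGF-beta, BMP and Wnt signalling had members at 9 of 86 genes (10.5%, 4.90 to 18.9). All 10 of these peaks lay downstream, beside 68.5% of all members. All 9 genes also had a peak within 1 kb, as did 80.2% of the list. The inhibitory Smad gene Smad7 led with 27.8 at 1036 bp downstream, beside 45.9 near its TSS. The ligand genes Bmp2, Wnt3a and Wnt1 had members of 21.7, 20.6 and 20.4, each above the peak near the TSS (16.9, 16.2 and 12.6). Axon growth and guidance had 5 of 75 genes (6.67%, 2.20 to 14.9), all 5 with a peak within 1 kb. After Efna5 and Efna3 these were led by the netrin gene Ntn1 (19.9) and the ephrin receptor gene Epha7 (17.6). Receptor tyrosine kinase and MAP kinase signalling had 5 of 131 genes (3.82%, 1.25 to 8.68, an interval that includes 1.52%), led by the growth factor genes Fgf9 (33.2), Pdgfb (29.3), Igf2 (26.9) and Pdgfa (18.2). AP-1, CEBP, Maf and MYC factors had 3 of 36 genes (8.33%, 1.75 to 22.5), namely Fosl2, Junb and Jun, which the immediate early list also holds.

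Lists of neuronal and second-messenger signalling also had intervals that included 1.52%. Ion channels had 5 of 160 (3.13%, 1.02 to 7.14), among them the potassium channel genes Kcnh2 (20.5), Kcns1 (19.7) and Kcnk13 (16.7). Neurotransmitter receptors and synapse had 3 of 99 (3.03%, 0.629 to 8.60). They were Grin2a, an NMDA receptor subunit gene (15.2), Dlg4, which encodes the postsynaptic scaffold PSD-95 (12.7), and the scaffold gene Shank3 (9.53). cAMP signalling had 2 of 47 genes (4.26%, 0.520 to 14.5), the adenylyl cyclase genes Adcy6 (24.2, with no peak within 1 kb) and Adcy8 (18.7). KLF and Sp factors had 1 of 26 genes, Sp8 (17.1, and 21.6 near its TSS), while 20 of the 26 had a peak within 1 kb. Thyroid hormone and glucocorticoid action had 1 of 22 genes, the glucocorticoid-induced Tsc22d3 (22.7).

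In the remaining lists with members the shares ran from 0.771% to 4.31%. Histone and chromatin enzymes had 5 of 116 genes (4.31%, 1.41 to 9.77), led by Smarcd3 (34.3), the SWI/SNF ATPase gene Smarca2 (19.0), the bromodomain gene Brd2 (12.4) and the corepressor gene Bcor (11.7). Ubiquitin ligases and proteases had 8 of 356 (2.25%), led by Fbxo46 (29.5), Usp44 (24.2), Trim71 (23.8 and 20.2) and Klhl35 (22.2 and 20.0). Zinc finger protein genes had 10 of 476 (2.10%), with Zfp423 (23.9 and 10.2) and Zfp503 (21.3) highest. Cell cycle and apoptosis had 2 of 101 (1.98%), the pro-apoptotic Bbc3 (21.2) and the kinase gene Cdk6 (20.0). Extracellular matrix and adhesion had 5 of 265 (1.89%), 4 of them the protocadherin genes Pcdh1, Pcdh8, Pcdh7 (25.9) and Pcdh10 (19.5). Histone genes had 1 of 102 (0.980%), H2bfm (12.8). Solute carriers had 3 of 389 (0.771%), among them the chloride transporter gene Slc12a5 (15.4). No member was found at 83 cytosolic ribosomal protein genes, at 35 genes of SIN3, HDAC and NCoR corepressors or at 23 of JAK-STAT signalling, which allows shares of up to 4.35%, 10.0% and 14.8% (exact binomial limits). A peak within 1 kb was present at 15, 18 and 13 genes of these 3 lists (18.1%, 51.4% and 56.5%), beside 30.9% of protein-coding genes.

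**Figure D5:**
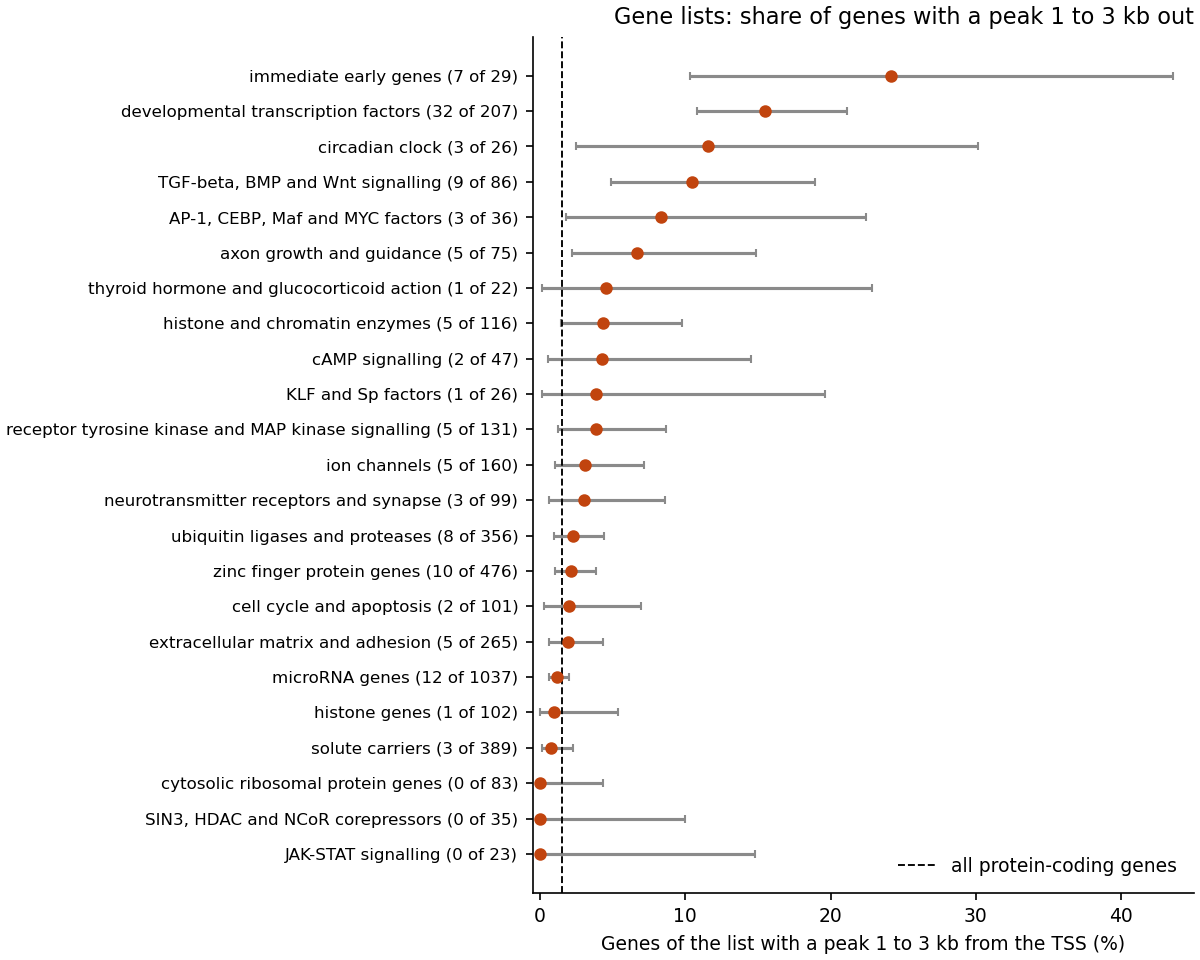
Share of the genes of each list with a peak 1 to 3 kb from the TSS in percent (horizontal axis), with exact 95% binomial intervals; the dashed line marks 1.52%, the share of all protein-coding genes. Immediate early genes (24.1%) and developmental transcription factors (15.5%) stand at the top, and 3 lists have no such gene. The dashed line does not apply to the microRNA list. Its 12 genes are also all those behind the 0.977% of all microRNA genes, so that share is no separate reference.

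A small set of members had very low folds and lay in local groups. A fold under 7, a limit set after the values were seen, occurred at 8 of the 400 members and at 171 of the 9506 peaks. Such folds were thus about as frequent among members as in the whole list. Of the 8 members 4 lay near Sfi1, a centrosomal gene, and Eif4enif1, which encodes a transporter of the cap-binding factor eIF4E. Their folds were 2.40 and 3.56 at Sfi1 and 2.75 and 2.22 at Eif4enif1. Within 50 kb of the Sfi1 members there were 9 peaks, and 8 of them had a fold under 7. The exception was the TSS of Eif4enif1, with a fold of 32.6. At Rnf138rt1 both members (4.51 and 6.37) were in a group of 3 peaks within 50 kb, all under 7, and at Mir101c the member (5.52) was in a group of 6, all under 7. The last was at Hrh2, a histamine receptor gene (6.16, beside another member of 10.3). Whether reads at these places map to more than 1 position was not tested.

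Motif letters were counted in RefSeq promoter windows, each from 250 bp before to 50 bp after a start, on both strands. GGGCGG occurred in 35.7% of all 32851 windows and CCACCC in 31.5%. Of the 31 windows touched by a member, at 26 genes, 23 held GGGCGG (74.2%) and 16 held CCACCC (51.6%), and the median GC content was 68.7%. Windows touched by peaks within 1 kb numbered 6358, with GGGCGG in 82.7%, CCACCC in 40.5% and a median GC content of 69%. For genes with a member but no peak within 1 kb, which the members themselves mostly do not touch, 138 windows held GGGCGG in 42.8% and CCACCC in 52.9%. For genes with both, 228 windows held them in 69.7% and 45.6%, and for all protein-coding genes the shares were 46.2% and 33.6%. Windows of 1 gene overlap and are not independent, and most members lie outside any window, so these letters describe gene starts and not the bound sequence of the members.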

How the data were processed

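ChSP and input libraries of HT22-BirA cells (4 each) were grouped by their labels. Tools named without roles, per the submitters' processing notes, were ChIPseeker 1.16.1, HOMER 4.9.1, BWA 0.7.17-r1188 and FastQC 0.11.3, with the build GRCm38. PePr as the caller is known from how the deposited list is named, and the sources used here give neither its settings nor the scaling between libraries. The list holds 1 line per peak over all libraries. Its fold, a ratio of ChSP over input, and its p-value were computed by the authors, and each listed p was at or below 9.99e-06. Widths, distances, classes and genes were also deposited by the authors, per the file headers. The deposited distance equalled one recomputed from the peak edges at all 9506 peaks.

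No filter was applied. Peaks are not replicates and no test was run: shares have exact 95% binomial intervals, and medians have intervals from order statistics. The scripts were tested on simulated data. Software was scipy 1.17.1, matplotlib 3.10.9, numpy 2.4.6 and pandas 2.3.3 under Python 3.11.15. Gene symbols, starts and sequences came from RefSeq tables on GRCm38.p6, and all 400 peaks had a gene identifier there. Sequences were read only inside those windows, and the 9 members on chromosome 18 were not looked up for starts. Lists are symbol patterns, and the pattern for histone genes was corrected after its first count had been seen, since it also matched H2 histocompatibility genes. Genes were named by rank: the 10 highest folds, 5 smallest p, 3 lowest folds, 5 highest folds at genes with no other peak and 5 at genes with a peak within 1 kb, genes with 2 or more members, and up to 4 per list. Any other gene was named for its place at a distance limit, its sequence, its low fold or its difference from the peak near the TSS. Some items are not reported here. The members and the lists were chosen with earlier results of these data known.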

Additional observations from a re-analysis of the deposited data

How the results depend on the processing

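Of 40 recomputed values, 30 stayed within the interval of the value reported or, for the number of members, within 1.5 times of it, and 10 did not. The 30 include 6 values, 1 for each result, from choosing members by the deposited distance. The classes follow that same distance, so these 6 were identical to the values reported and say nothing about stability. Keeping only the 4753 peaks with the smallest p left 102 members, with a median fold of 21.5, a median width of 700 bp, 39.2% with a peak of the same gene within 1 kb and 41.2% within 5 kb of another peak. Merging peaks under 1 kb apart left 290 members and gave 42.4% and 46.9% for the last 2 shares. Both settings take neighbouring peaks out of the list, which by itself lowers these 2 shares. Counting only peaks over the TSS as the partner gave 37.75% in place of 55.25%. A neighbour within 2 kb was present for 52.25% of members and within 10 kb for 71.25%. The shares over all peaks are not given for these alternative settings, so members cannot be set against the list there. The share downstream stayed between 65.7% and 69.5% in every alternative run. Leaving out peaks of fold under 7, chosen after seeing the data, left all 6 results within those bounds. No paired analysis was possible because each peak has a single value from all libraries together, and for the same reason no library could be left out. Read depth is unknown, so neither the precision of a fold nor the reach of the list for weak sites could be given.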
